A study of Mus musculus with 6 samples.

Results

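Messenger RNA of 10 genes for transcriptional regulators of cardiac fuel use was followed in the pressure-overloaded left ventricle of mice: the receptors Ppara, Ppard and Pparg, their partners Rxra and Rxrg, the coactivators Ppargc1a and Ppargc1b, and the receptors Esrra, Esrrb and Esrrg. They are 10 of the 54929 genes in the count table, matched by gene symbol, and all 10 passed the filter on low counts. The list was selected on the same anti-PD-1 against anti-IgG values that are given below, so those values describe the members and no p is given for them. All mice were wild-type C57BL/6, underwent TAC (transverse aortic constriction, which raises the pressure load of the left ventricle), and received an antibody by intraperitoneal injection at 10 mg/kg every 3 days from day 14 after surgery. The antibody was anti-IgG, the control, in 3 libraries (the control libraries) and anti-PD-1, which blocks the inhibitory receptor PD-1 of T cells, in the other 3, and all 6 samples were labelled 5 weeks. Age, sex and the number of mice per library were not given in the labels used here, and no unoperated or untreated ventricle was analysed. The p-values given for other genes therefore measure the spread between these samples, which may be technical.

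The peroxisome proliferator-activated receptors (PPARs) are nuclear receptors that bind fatty acids and their derivatives and sit on DNA as heterodimers with a retinoid X receptor (RXR). In heart muscle PPAR alpha and PPAR delta act on genes of fatty acid uptake and oxidation, while PPAR gamma is best known from fat cells. The oestrogen-related receptors (ERRs) have no known physiological hormone, and act on genes of oxidative phosphorylation, the tricarboxylic acid cycle and fatty acid oxidation. PGC-1 alpha and PGC-1 beta, encoded by Ppargc1a and Ppargc1b, bind no DNA themselves: they dock on PPARs, ERRs and other factors and recruit the transcription machinery, and are known as inducers of mitochondrial biogenesis.

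Promoters are shown for the member with the largest difference (Ppara) and for the main cardiac coactivator (Ppargc1a). Those of the ERR genes with the largest (Esrrg) and the smallest difference (Esrra) are also shown. Each runs 5′ to 3′ on the gene's strand, from 250 bases before to 50 bases after a RefSeq start site in GRCm38.p6, the assembly named mm10, and capitals mark the motif matches described after them.
Ppara, chr15:85735526-85735825, plus strand: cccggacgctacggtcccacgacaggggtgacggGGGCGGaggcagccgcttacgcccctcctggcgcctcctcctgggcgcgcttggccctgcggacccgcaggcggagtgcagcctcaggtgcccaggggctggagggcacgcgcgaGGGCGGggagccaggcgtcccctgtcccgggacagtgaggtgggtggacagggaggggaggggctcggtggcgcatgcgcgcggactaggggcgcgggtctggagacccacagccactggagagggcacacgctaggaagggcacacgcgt
Ppargc1a, chr5:51567676-51567975, minus strand: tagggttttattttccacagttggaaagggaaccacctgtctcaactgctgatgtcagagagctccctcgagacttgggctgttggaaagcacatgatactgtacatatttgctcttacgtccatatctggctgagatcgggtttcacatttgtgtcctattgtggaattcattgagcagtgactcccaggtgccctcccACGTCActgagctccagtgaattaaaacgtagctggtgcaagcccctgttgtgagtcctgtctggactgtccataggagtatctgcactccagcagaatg
Esrrg, the most upstream of 4 start sites, chr1:187608756-187609055, plus strand: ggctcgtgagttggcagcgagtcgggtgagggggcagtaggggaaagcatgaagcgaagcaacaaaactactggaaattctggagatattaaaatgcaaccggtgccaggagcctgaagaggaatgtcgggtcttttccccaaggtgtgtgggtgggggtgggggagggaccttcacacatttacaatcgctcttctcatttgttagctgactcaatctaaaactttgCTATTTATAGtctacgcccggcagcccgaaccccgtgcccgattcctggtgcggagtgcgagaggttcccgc
Esrra, chr19:6921759-6922058, minus strand: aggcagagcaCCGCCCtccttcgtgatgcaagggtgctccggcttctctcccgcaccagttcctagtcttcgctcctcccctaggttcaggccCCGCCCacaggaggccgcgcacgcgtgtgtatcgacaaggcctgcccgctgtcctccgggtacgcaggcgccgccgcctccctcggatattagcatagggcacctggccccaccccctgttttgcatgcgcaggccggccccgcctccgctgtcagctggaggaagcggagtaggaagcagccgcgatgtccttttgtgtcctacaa

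Capitals in the Ppara and Esrra promoters are GC boxes (GGGCGG on either strand), 2 in each. Those in the Ppargc1a promoter are a cyclic AMP response element core (TGACGT, here on the opposite strand), beginning at position -50 with the start site at 0. Those in the Esrrg promoter are a match to the MEF2 motif, whose consensus is symmetric so that it matches on both strands, at position -22. Esrrg start sites 3 and 4, counted from upstream and not shown, held GC boxes. RefSeq promoters of 9 of the 10 members were used, 17 start sites in all, and searched on both strands. Ppargc1b was left out and not searched. A GC box lay in 8 of these 17 and in 35.7% of all 32851 mouse promoters of that length. The core TGACGT lay in 1 of 17 against 7.51% of all promoters, and the MEF2 match in 1 of 17 against 0.557%. AGGTCA, the hexamer that nuclear receptors bind, lay in 4 of 17 (both upstream promoters of Pparg, the downstream ones of Rxra and Rxrg) against 16.3%. None of these 17 held that hexamer in the longer form preferred by ERRs (preceded by T, any base and A), in 1.28% of all. Nor did any hold the DR1 form preferred by PPAR-RXR (a pair with 1 base between), in 0.0396%, or the clock E-box CACGTG, in 7.15%. The longer forms contain the hexamer. A match is a string in the window and no measurement of binding.

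The 6 libraries held 18063344 to 21093163 counted reads, of which 28.9% to 39.3% came from mitochondrially encoded genes. Of 14807 genes tested, 21.1% passed the threshold (adjusted p under 0.05 by the quasi-likelihood test of edgeR, with the Benjamini-Hochberg method), 10.3% higher and 10.8% lower with anti-PD-1, and in 41% all 3 libraries of a group lay on one side of the other group. The balance depended on scaling: over all tested genes 1525 were higher and 1593 lower with TMM, and 1178 higher and 2022 lower with upper quartile scaling, where the median fold change was -0.12 against -0.03. All fold changes are anti-PD-1 over anti-IgG on the log2 scale, with the standard error (SE). Levels are given as CPM, counts scaled to library size with the TMM factors of edgeR, and FPKM, which also divides by gene length, where genes are compared with each other. All 10 cardiomyocyte markers were measured in every library, among them the alpha myosin heavy chain gene Myh6. Myh6 alone does not tell ventricle from atrium.

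Of the 10 regulators, 3 (Ppara, Ppargc1b and Esrrg) passed the threshold for a higher level with anti-PD-1, none for a lower one, and 7 did not pass. Their median fold change was 0.61. In 4 of the 10 (these 3 and Esrrb) all anti-PD-1 libraries lay above all anti-IgG libraries, and in no member did they lie below. Over all tested genes 10.3% passed the threshold for a higher level, and in 2989 of 14807 all anti-PD-1 libraries lay above. As the list was drawn up with these values known, neither the counts nor the median can show that it stands out. Counts at the gene level do not tell apart the isoforms of a gene such as Ppargc1a, and in bulk tissue fewer cells of a type and less RNA per cell cannot be told apart.

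**Figure D1:**
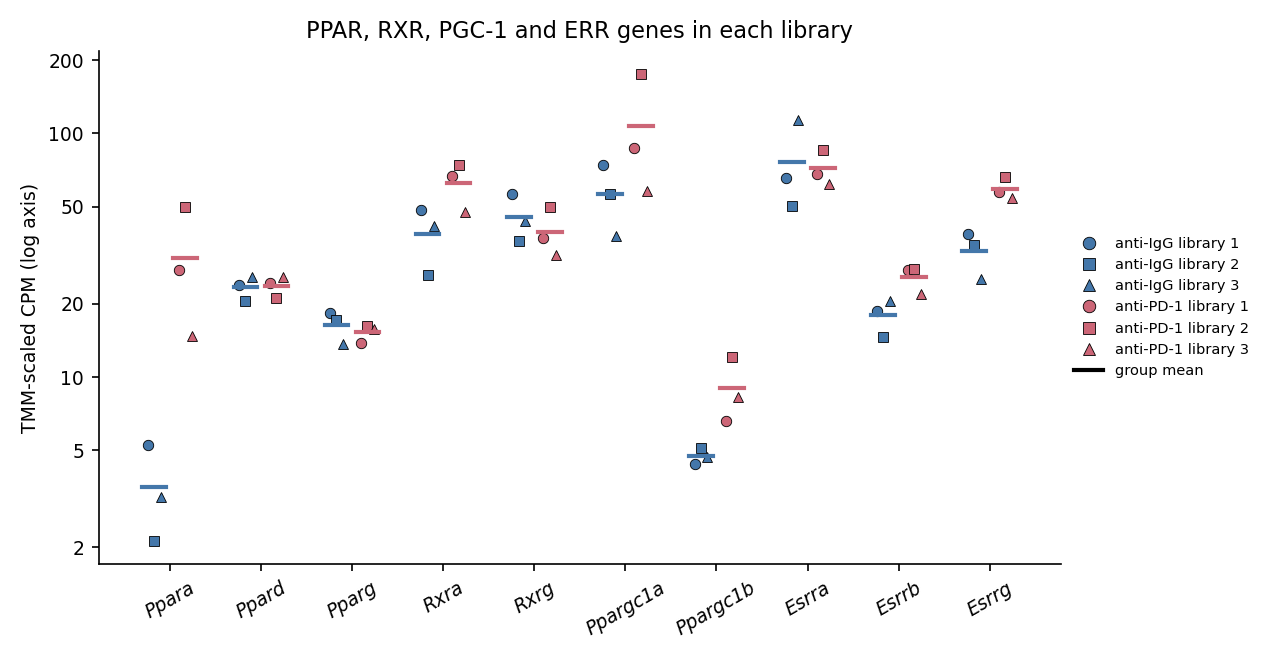
TMM-scaled CPM (log axis) of the 10 regulators in each library; blue symbols are the anti-IgG and red symbols the anti-PD-1 libraries, the shape gives the library number and the bar the group mean of 3. Ppara is the lowest of the 10 in every anti-IgG library but library 1, and all 3 of its anti-PD-1 values, 14.7 to 50.0, lie above all anti-IgG values, 2.13 to 5.28.

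Among the PPAR genes, only Ppara passed the threshold. Ppara (chromosome 15, 85734983 to 85802819 in mm10; gene length 3836 bp in the authors' table) encodes PPAR alpha, the main PPAR of fatty acid oxidation in heart and liver. Its level was 5.28, 2.13 and 3.20 CPM in anti-IgG libraries 1 to 3 and 27.6, 50.0 and 14.7 CPM in anti-PD-1 libraries 1 to 3. The lowest anti-PD-1 value was 2.79 times the highest anti-IgG value, a gap larger than the 2.48-fold range inside the anti-IgG group and smaller than the 3.40-fold range inside the anti-PD-1 group. The means were 3.54 ± 1.60 and 30.8 ± 17.9 CPM (SD, n = 3), a ratio of 8.70 and a fitted fold change of 3.11 (SE 0.49). These levels rest on few reads in the control: 38 in anti-IgG library 2, with an exact 95% Poisson interval of 26.9 to 52.2 that covers counting error only, against 934 in anti-PD-1 library 2 (875 to 996).

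Ppard (chromosome 17, 28232700 to 28301474; 7514 bp), the receptor expressed in most tissues, stood at 23.9, 20.5 and 25.6 CPM with anti-IgG and 24.4, 21.1 and 25.7 CPM with anti-PD-1. The groups overlapped over most of their range, with a fold change of 0.02 (SE 0.18). Pparg (chromosome 6, 115360951 to 115490399; 2953 bp), the receptor of fat cell differentiation, was measured at 18.4, 17.2 and 13.6 CPM and at 13.9, 16.2 and 15.8 CPM. These values overlapped too, with a fold change of -0.10 (SE 0.20).

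Per length, the order of the PPAR genes was not the same in both groups. With anti-IgG, Pparg stood at 5.17 FPKM, Ppard at 2.90 and Ppara at 0.860 ± 0.396. With anti-PD-1, Ppara stood at 7.54 ± 4.26 FPKM, Pparg at 4.89 and Ppard at 2.99, and the ranges of Ppara and Pparg overlapped. Ppara made up 12.8%, 6.08% and 9.43% of the summed PPAR FPKM in the anti-IgG libraries and 47.5%, 61.2% and 30.4% in the anti-PD-1 libraries. The share of Pparg was 57.9% ± 5.96 in the control and 33.1% ± 8.57 with anti-PD-1 (SD, n = 3). The family's sum was 8.93 ± 1.03 and 15.4 ± 3.96 FPKM.

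**Figure D2:**
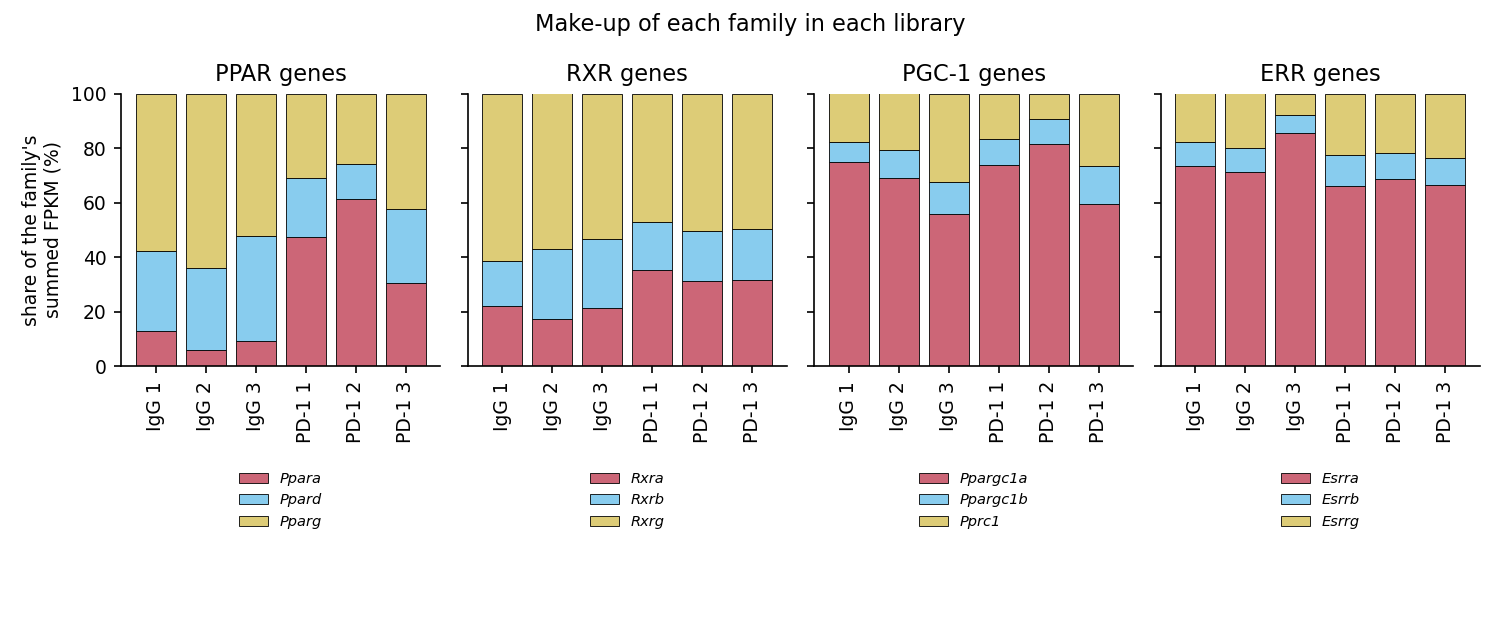
Share of each gene in the summed FPKM of its family (percent), 1 bar per library, with Rxrb and Pprc1, which are no members of the list, added to complete the RXR and PGC-1 families. The Ppara part of the PPAR bar runs from 6.08% to 12.8% in the anti-IgG libraries and from 30.4% to 61.2% in the anti-PD-1 libraries, while Esrra and Ppargc1a hold the largest part of their family's bar in every library.

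Of the RXR genes, Rxra lay higher in most anti-PD-1 libraries. Rxra (chromosome 2, 27676440 to 27762957; 5462 bp), the partner of PPARs found in most cell types, had 48.5, 26.1 and 41.5 CPM with anti-IgG and 66.8, 73.9 and 47.6 CPM with anti-PD-1. The lowest anti-PD-1 value, in library 3, fell just under the highest anti-IgG value, in library 1. Its fold change was 0.70 (SE 0.25), which did not pass the threshold in edgeR and did in DESeq2, without the count filter, and without control library 1. Rxrg (chromosome 1, 167598384 to 167639623; 2297 bp), the RXR of striated muscle and some neurons, had 56.4, 36.0 and 43.9 CPM against 37.3, 49.8 and 31.6 CPM. Its values overlapped, with a fold change of -0.20 (SE 0.22), and the sign turned to 0.14 with either correction for length described below. Rxrb, not on the list, was at 27.8 ± 5.21 and 23.6 ± 4.96 CPM (fold change -0.24, SE 0.21, edgeR adjusted p = 0.444). Rxra was 20.3% ± 2.54 of the summed RXR FPKM in the control and 32.8% ± 2.25 with anti-PD-1. Rxra is longer than Rxrg and Rxrb (3698 bp), and the part of gene length in these shares was not tested. The RXR sum was 32.0 ± 6.19 and 33.1 ± 6.74 FPKM.

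Both PGC-1 coactivators on the list had a fold change of 0.93, with different spreads. Ppargc1a (chromosome 5, 51454250 to 51567726; 6592 bp) had 74.3, 56.7 and 37.8 CPM with anti-IgG and 87.2, 175 and 58.0 CPM with anti-PD-1. Anti-PD-1 library 2 stood far above the rest and library 3 lay inside the anti-IgG range. The fold change had an SE of 0.40 and was 0.39 without anti-PD-1 library 2. It passed the threshold in 4 of 19 other settings, among them DESeq2, no count filter and leaving out anti-PD-1 library 3.

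Ppargc1b (chromosome 18, 61298136 to 61400431; 3990 bp) had 4.41, 5.09 and 4.71 CPM with anti-IgG and 6.63, 12.1 and 8.26 CPM with anti-PD-1. The anti-IgG values were within 1.16-fold of each other, and the lowest anti-PD-1 value was 1.30 times the highest of them. The means were 4.73 ± 0.34 and 9.0 ± 2.81 CPM, with an SE of 0.27 on the fold change. Ppargc1b lost its call in 7 of 19 other settings: limma-voom, the correction for transcript length, and leaving out any control library, anti-PD-1 library 2 or anti-PD-1 library 3. Without anti-PD-1 library 2 its fold change was 0.67. Per length, Ppargc1a was the far larger of the pair, at 7.94 FPKM against 1.10 with anti-IgG and 15.2 against 2.13 with anti-PD-1. The third family gene, Pprc1, was at 21.6 ± 2.97 and 24.8 ± 3.94 CPM (fold change 0.20, edgeR adjusted p = 0.485).

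Of the 3 ERR genes, Esrrg passed the threshold and Esrrb and Esrra did not. Esrrg (chromosome 1, 187608791 to 188214885; 6208 bp), the receptor of the postnatal switch to oxidative metabolism in heart, had 38.8, 34.9 and 25.4 CPM with anti-IgG and 57.3, 66.4 and 54.4 CPM with anti-PD-1. Every anti-PD-1 value was at least 1.40 times every anti-IgG value. The means were 33.0 ± 6.91 and 59.4 ± 6.24 CPM, a fold change of 0.85 (SE 0.20). This call ended without control library 2, where the fold change was 0.87, and with the correction for transcript length, where it was 0.50.

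Esrrb (chromosome 12, 86361117 to 86521628; 6047 bp), known from stem cells and the inner ear, had 18.7, 14.6 and 20.5 CPM against 27.6, 27.8 and 21.9 CPM. The groups did not overlap, by a ratio of only 1.07, and the fold change of 0.52 (SE 0.20) did not pass in any setting. Esrra (chromosome 19, 6910977 to 6921813; 2539 bp), the most abundant ERR of heart muscle, had 65.8, 50.4 and 113 CPM against 68.4, 85.4 and 62.1 CPM. Anti-IgG library 3 was the highest of all and the groups overlapped, with a fold change of -0.09 (SE 0.28). Its sign was not stable: it was 0.31 when control library 3 was left out and -0.34 when control library 2 was. Esrra shares 73 bp with Trmt112 on the opposite strand and 91 bp with Mir6990 on its own, and the sources used here do not say whether reads were counted by strand. Per length, Esrra remained the largest ERR transcript, with 76.8% ± 7.76 of the family's FPKM in the control and 67.1% ± 1.46 with anti-PD-1. Esrrg held 15.2% ± 6.52 and 22.8% ± 0.98. Control library 3 stood apart, at 85.6% for Esrra against 73.5% and 71.2% in control libraries 1 and 2. For Esrrg it was at 7.85% against 17.7% and 20.2%.

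Across all 10 regulators per length, Esrra was the most abundant in both groups, with 28.1 FPKM in the anti-IgG and 26.8 in the anti-PD-1 libraries. Rxrg followed with 18.4 and 16.2, and Ppargc1a with 7.94 and 15.2. Ppara was the last of 10 with anti-IgG, at 0.860 FPKM, and the sixth with anti-PD-1, at 7.54. The last place with anti-PD-1 was held by Ppargc1b at 2.13 FPKM. Most neighbours in these orders overlapped. With anti-IgG the ranges lay apart only between Rxrg and Ppargc1a, between Esrrg and Ppard, and between Esrrb and Ppargc1b. With anti-PD-1 they lay apart only between Esrra and Rxrg, between Pparg and Esrrb, and between Esrrb and Ppard.

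Fold changes in this comparison ran with gene length. The Spearman correlation of fold change with the authors' gene length was 0.49 over 14807 genes, a description over genes and not over replicates. Genes were put in 10 bins of equal size by length. Esrra and Rxrg are in bin 3, where the median was -0.34 and 2.70% of genes rose, and Ppargc1a, Esrrb and Esrrg in bin 8, where it was 0.21 and 15.9% rose. Set against its own bin, Ppara (bin 5, median -0.05) stood 3.16 above the median, at the 99.9th percentile, and Ppargc1b 0.97 above, at the 95.4th. Ppargc1a stood 0.71 above, Esrrg 0.63 and Rxra 0.59, at the 92.8th, 91.0th and 86.5th percentiles. Ppard differed by -0.29 from the median of bin 9, which was 0.32, and lay at the 28.0th percentile. Pparg, Rxrg, Esrra and Esrrb stood 0.06, 0.14, 0.25 and 0.31 above theirs. As the list was drawn up with these values known, these places in the bins describe the members and cannot show that they stand out. The part of length in these differences was not tested beyond this.

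**Figure D3:**
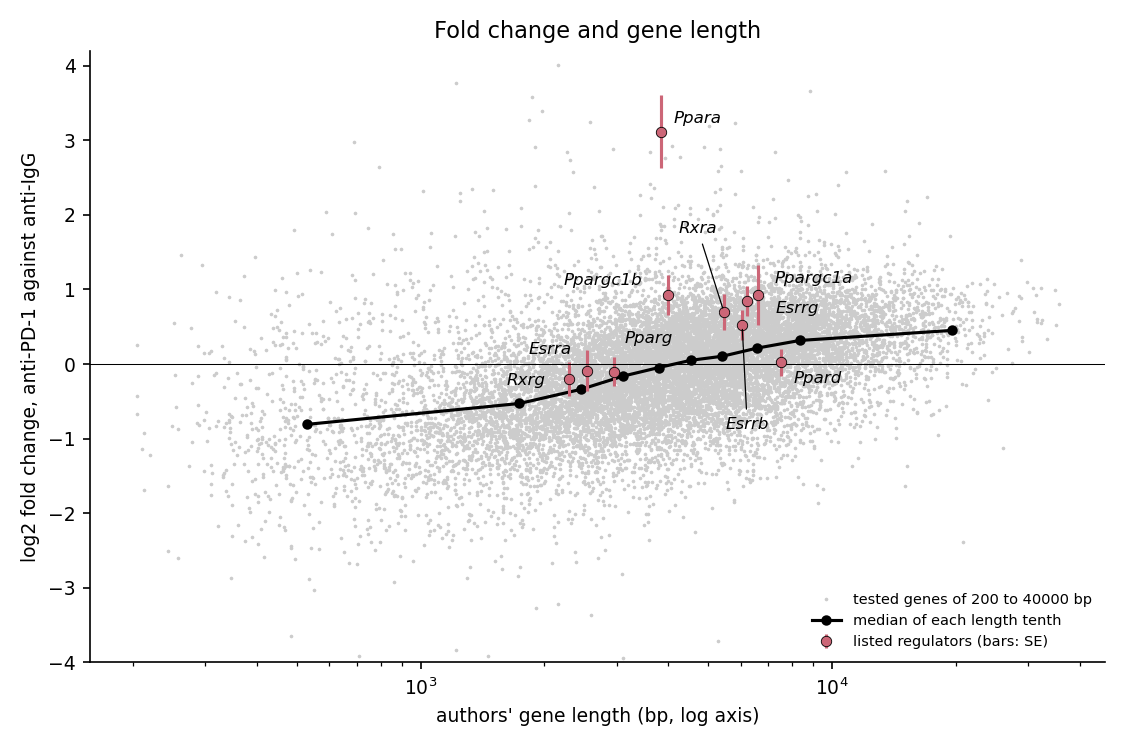
Log2 fold change against the authors' gene length (bp, log axis) for tested genes in grey, with the median of each of 10 length bins as black points joined by a line and the 10 regulators in red with bars of 1 SE. Ppara stands 3.16 above the median of its bin, while Pparg, Rxrg and Esrra lie 0.06, 0.14 and 0.25 above theirs.

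When each library's trend on gene length was removed, the same 3 regulators passed the threshold, with fold changes of 3.16 for Ppara, 0.96 for Ppargc1b and 0.69 for Esrrg. A correction for the lengths of the coding part and the 3′ UTR, which was chosen after seeing the data, left Ppara as the only regulator past the threshold, at 3.02. Ppargc1b then stood at 0.90, Esrrg at 0.50, Ppargc1a at 0.40, Rxra at 0.37 and Pparg at 0.33. The 3′ UTRs of Ppargc1a and Rxra, whose values came out lower, are 3933 and 3272 bases long, and that of Pparg, whose value came out higher, 207. That of Ppargc1b, whose value came out slightly lower, is 550. The correction takes out a trend fitted on these lengths, so shifts that run with them follow from its form.

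**Figure D4:**
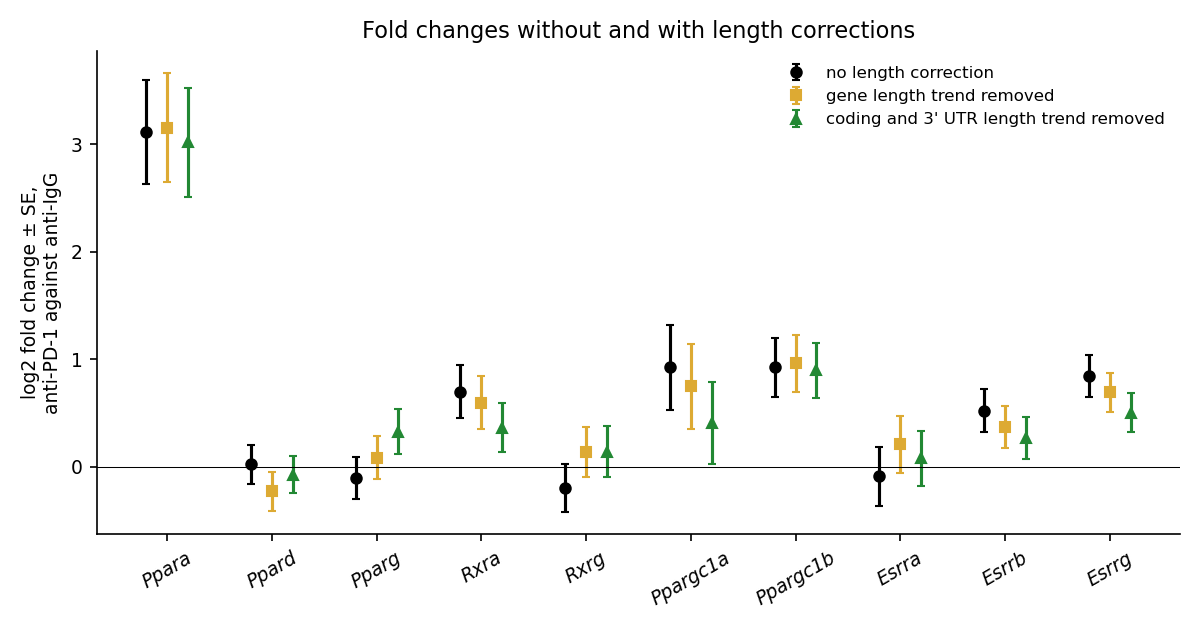
Log2 fold change of each regulator with bars of 1 SE, without correction (black circles), with the gene length trend removed (yellow squares) and with the coding and 3′ UTR length trend removed (green triangles). Ppara stays between 3.02 and 3.16, while Ppargc1a goes from 0.93 to 0.75 and 0.40.

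Library 2 of the anti-PD-1 group was the highest of its group in 9 of the 10 regulators, Ppard excepted, where it was the lowest. Over all tested genes it was the highest of its group in 41.3%. Anti-PD-1 library 3 was the lowest in 7 regulators (32.5% of all genes) and anti-IgG library 2 the lowest in 6 (27.6%). Library 2 also had the highest summed cardiomyocyte markers of the anti-PD-1 group, 31813 CPM against 16851 and 20386, where the anti-IgG libraries had 27936 to 36463. Of those 10 markers, the ryanodine receptor gene Ryr2 rose (1.39) and Tnnt2, Tnni3, Myl2 and Tnnc1 fell (-1.22, -1.35, -1.87 and -1.52, edgeR adjusted p from 0.00644 to 0.0225). Without anti-PD-1 library 2, the fold changes of Ppara and Esrrg were 2.59 and 0.78, and both passed the threshold. The part of cell make-up in the regulators' values was not tested beyond this.

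Clock genes also set that library apart. The 17 genes of the circadian clock are background to these regulators, since Ppara and Ppargc1a are known to cycle over the day and the heme receptor gene Nr1d1 belongs to both fields. Dbp, a clock output gene, was at 58.6 CPM in anti-PD-1 library 2 and at 1.25 and 2.40 in the other anti-PD-1 libraries, with 14.8, 5.15 and 4.81 in the anti-IgG libraries. Arntl, the partner of Clock, was at 3.27 CPM there and between 22.2 and 31.4 in the other 5 libraries. Per2 was at 33.0 CPM there and between 2.30 and 11.9 elsewhere, and Npas2, a paralogue of Clock, at 1.34 against 9.51 to 17.1. These 4 genes were picked after their values were seen. Of the 17, 2 rose with anti-PD-1, Clock (0.83, SE 0.24, edgeR adjusted p = 0.0335) and Bhlhe41 (0.64, SE 0.20, edgeR adjusted p = 0.0415), with a median of 0.64. These 2 are 11.8% of the list, near the 10.3% over all tested genes. Bhlhe40 stood at 0.54 and Cry2 at 0.79 and did not pass (edgeR adjusted p = 0.0611 and 0.176). Neither rise passed with a length correction. Leaving out control library 2, control library 3 or anti-PD-1 library 1 left 0 of the 17 past the threshold, and leaving out anti-PD-1 library 3 left 1. The labels used here give no hour of collection, and the part of the clock in the level of Ppara or Ppargc1a was not tested.

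Of 40 listed PPAR target genes, 36 could be tested. Of these 3 rose, 1 fell and 32 did not pass, and the median was -0.01. The share past the threshold, 11.1%, lay below the 21.1% over all tested genes, and the share that rose, 8.33%, was near the 10.3% of all. With upper quartile scaling 2 rose and 2 fell. Gpam, the mitochondrial acyltransferase that starts glycerolipid assembly, rose from 22.6 ± 10.2 to 202 ± 67.6 CPM (3.16, SE 0.39, edgeR adjusted p = 0.00391). Its libraries stood at 32.2, 12.0 and 23.7 CPM and at 229, 252 and 125 CPM. Acsl1, the main acyl-CoA synthetase of heart, rose by 0.86 (SE 0.25, edgeR adjusted p = 0.0354), and the lipoprotein receptor gene Vldlr by 0.81 (SE 0.26, edgeR adjusted p = 0.0458). Fabp3, the cytosolic fatty acid carrier of muscle, had 2103 ± 895 CPM in the control and fell to 777 ± 400 (-1.44, SE 0.43, edgeR adjusted p = 0.0407), at a length of 823 bp.

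Other PPAR targets stood on both sides of 0. Pdk4, which holds back pyruvate oxidation, had 202, 305 and 339 CPM against 358, 596 and 487 CPM (0.77, SE 0.26, edgeR adjusted p = 0.0544). It did not pass, though its groups did not overlap, and it passed in 6 of 19 other settings, the gene length correction among them. The fatty acid transporter gene Cd36 stood at 0.54 (edgeR adjusted p = 0.174) and the beta-oxidation gene Acadm at -0.47 (0.214). Angptl4, an inhibitor of lipoprotein lipase and a sensitive PPAR target, stood at -0.74 (edgeR adjusted p = 0.263) and the uncoupling protein gene Ucp3 at -0.62 (0.335). Cpt1b was at 1.14 ± 0.40 and 0.668 ± 0.398 CPM, but shares 2744 bp with Gm44502 on the same strand, so its count is uncertain. The number of targets past the threshold was 1 without control library 2 or without anti-PD-1 library 1, and 2 without control library 3. With the transcript length correction it was 1, Gpam.

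The ERR and PGC-1 targets that passed the threshold were all lower with anti-PD-1. Of 28 listed, mostly genes of the respiratory chain and tricarboxylic acid cycle, 8 fell, none rose and 20 did not pass, with a median of -0.39. The share that fell was 28.6%, against 10.8% of all tested genes, and was not tested because the list was chosen with earlier results known. The cytochrome oxidase genes Cox5b, Cox6a2 and Cox4i1 fell by 2.13, 1.83 and 1.21, and Idh3b, a subunit of isocitrate dehydrogenase, by 1.05. Their edgeR adjusted p lay between 0.00744 and 0.0108. Cycs, which encodes cytochrome c, had 393 ± 128 CPM in the control and fell to 179 ± 56.2 (-1.14, SE 0.29, edgeR adjusted p = 0.0231). Mdh2, Ndufb5 and the ADP/ATP carrier gene Slc25a4 were the other 3. Perm1, a muscle regulator induced by PGC-1 and ERR, stood at 0.59 (edgeR adjusted p = 0.105). Of the 8 that fell, Cox6a2 is the shortest at 680 bp and Ndufb5 the longest at 4995 bp, and the list's median length was 3492 bp against 4163 over all tested genes. With the gene length trend removed 5 of the 28 passed, and with the transcript length trend removed 1, Cox5b (-1.26, edgeR adjusted p = 0.0262), and the list's median turned to 0.07. In DESeq2 and without the count filter 1 of the ERR and PGC-1 target genes rose. Leaving out control library 2 gave 5, and leaving out control library 3, anti-PD-1 library 1 or anti-PD-1 library 3 gave 4.

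**Figure D5:**
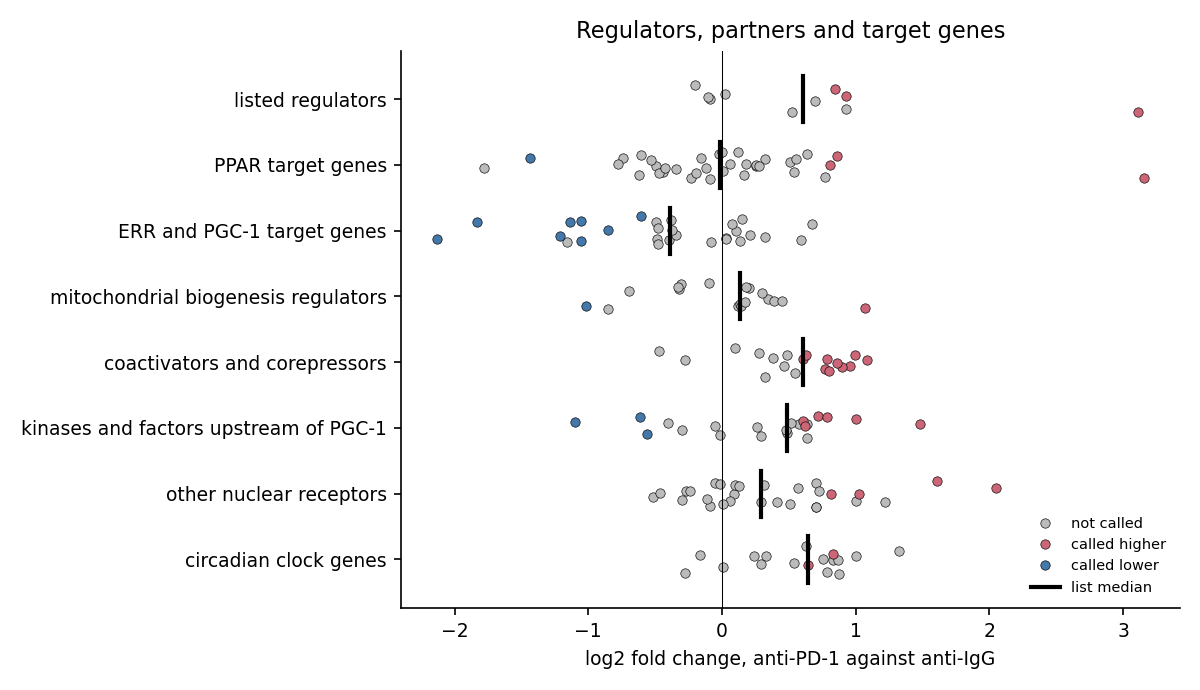
Log2 fold change of every tested gene in the 10 regulators and 7 lists of related genes, 1 point per gene, red and blue where it passed the threshold higher or lower, with the list median as a black bar. The 8 coloured points among the ERR and PGC-1 targets all lie below 0, and the 10 among coactivators and corepressors all lie above.

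Of 18 factors of mitochondrial biogenesis, 16 did not pass the threshold. The share that passed was 11.1%, against 21.1% of all tested genes. Opa1, which fuses the inner membrane, rose by 1.07 (SE 0.20, edgeR adjusted p = 0.0077) and Ssbp1, the DNA-binding protein of the mitochondrial nucleoid, fell by 1.02 (SE 0.22, edgeR adjusted p = 0.012). The list's median was 0.14, and its fold changes ran from -1.02 to 1.07. Tfam, which packages mitochondrial DNA, was at 40.4 ± 3.27 and 44.6 ± 2.31 CPM (0.14, edgeR adjusted p = 0.553). Nrf1, nuclear respiratory factor 1, was at 13.7 ± 1.51 and 14.9 ± 1.47 CPM (0.12, edgeR adjusted p = 0.684). Top1mt stood at -0.70 and Polg, the mitochondrial DNA polymerase, at 0.44 (edgeR adjusted p = 0.112 and 0.113). Without control library 2 only Opa1 passed, and with the transcript length correction Ssbp1.

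Of the proteins that nuclear receptors recruit, those that passed the threshold were all higher with anti-PD-1. Of 19 coactivators and corepressors, 10 rose, none fell and 9 did not pass, with a median of 0.61 and a median length of 8903 bp. The share that rose was 52.6%, against 10.3% of all tested genes. In length bin 9, which holds that median length, 21.7% rose and the median was 0.32. The list was chosen with earlier results of these data known, so these shares were not tested. Ncoa2, a p160 coactivator, rose by 1.08 (edgeR adjusted p = 0.00854), the acetyltransferase gene Ep300 by 1.00 (0.00865), and Lpin1, a phosphatidate phosphatase that also coactivates PPAR alpha with PGC-1 alpha, by 0.79 (0.012). Med1, the Mediator subunit that nuclear receptors contact, rose by 0.77 (edgeR adjusted p = 0.0136). Both coactivators and corepressors were among the 10. Ncor1, the nuclear receptor corepressor, rose from 89.0 ± 7.14 to 155 ± 22.8 CPM (0.80, edgeR adjusted p = 0.0152), and Nrip1, a corepressor of oxidative genes, from 19.4 ± 4.12 to 35.2 ± 3.79 CPM (0.86, edgeR adjusted p = 0.0155). With the gene length trend removed 2 of the 19 passed, and with the transcript length trend removed 1. Without control library 2 there was 1, and without anti-PD-1 library 1 there were 5.

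Upstream of PGC-1, subunits of the energy sensor AMP-activated protein kinase (AMPK) moved in both directions. Of 21 kinases and factors, 6 rose, 3 fell and 12 did not pass, with a median of 0.49. The share past the threshold was 42.9%, against 21.1% of all tested genes. The share that rose was 28.6%, against 10.3% of all. In length bin 8, which holds the list's median length of 6480 bp, 15.9% rose. The balance of rises and falls was 3 and 3 with upper quartile scaling, and 9 and 1 in DESeq2 and without the count filter. Prkaa2, the catalytic subunit of striated muscle, had 129, 67.5 and 79.5 CPM against 299, 267 and 206 CPM and rose by 1.48 (SE 0.26, edgeR adjusted p = 0.00715). The regulatory subunit gene Prkab2 rose by 1.00 (edgeR adjusted p = 0.00744), and Prkag1 and Prkab1 fell by 1.10 (0.0136) and 0.61 (0.0456). Prkaa2 and Prkab2 are 7969 and 5096 bp long, and Prkag1 and Prkab1 2175 and 3066 bp. The part of length in this split was not tested beyond the corrections for length. Atf2, which binds the Ppargc1a promoter in other tissues, rose by 0.72 (edgeR adjusted p = 0.0298). Klf15, a fasting-responsive partner of PPAR alpha in heart, was at 21.6 ± 5.26 and 20.9 ± 10.4 CPM (-0.05, edgeR adjusted p = 0.929). Prkaa2 passed the threshold in all 19 other settings, with fold changes from 1.00 to 1.81. The list's count was 3 with either length correction, 3 when control library 2 or 3 was left out, 2 without anti-PD-1 library 1 and 4 without anti-PD-1 library 3.

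Among 34 other nuclear receptor genes, 29 could be tested and 4 rose, with none lower and a median of 0.29. That share, 13.8%, was near the 10.3% of all tested genes that rose, and with upper quartile scaling 1 fell. Rarb, a retinoic acid receptor that also pairs with RXR, rose from 1.39 ± 0.57 to 5.79 ± 1.23 CPM (2.05, SE 0.39, edgeR adjusted p = 0.00827). Nr2c2, the orphan receptor TR4, rose by 1.61 (edgeR adjusted p = 0.0171), Nr4a3 by 1.02 (0.0175), and the glucocorticoid receptor gene Nr3c1 by 0.81 (0.0247). Of these 4, only Rarb passed in all 19 other settings. The count was 7, 1 and 2 when control library 1, 2 or 3 was left out, 2 without anti-PD-1 library 1, and 1 with the transcript length correction.

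The genes nearest to a regulator over the 6 libraries were named by the smallest root mean square (RMS) difference of their deviations in log2 CPM, among 9053 genes whose mean log2 CPM reached 3. Nearest to Ppara was its listed target Gpam (RMS difference 0.29), followed by Pm20d2 (0.38), Pdpr (0.38) and the sodium-calcium exchanger gene Slc8a1 (0.39). These 4 had fold changes between 2.88 and 3.27. Nearest to Ppargc1a were Tfdp2 (0.12), Rnf144b (0.15), Pank1 (0.15), Gpcpd1 (0.16) and Dusp18 (0.17), with fold changes of 0.79 to 1.02. Nearest to Esrra were Endog (0.10), Timm23 (0.10), Nr2f6 (0.11), Aen (0.11) and Egln2 (0.12), with fold changes of -0.09 to 0.09. The 6 libraries share the group difference and the length trend, so nearness here describes these libraries.

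Fat tissue in a sample could carry Pparg and Plin genes, so adipocyte markers were read. Of 9, 3 could be tested and none passed. Adipoq was between 0.0501 and 0.392 CPM with anti-IgG and at 0 in all anti-PD-1 libraries, and Ucp1 at 0 in all 6. Cfd was between 0.0501 and 1.17 CPM with anti-IgG and between 0 and 0.817 with anti-PD-1. The summed level of the 9 was 45.4 to 63.7 CPM in the control and 25.2 to 57.2 with anti-PD-1. It was carried mainly by Lipe and Cidea, which heart muscle also expresses. The part of fat tissue in the level of Pparg was not tested. Macrophages, fibroblasts and endothelium also express Pparg or Ppard. Their summed markers were 316 to 565, 1638 to 2454 and 1529 to 1637 CPM with anti-IgG, and 344 to 371, 1816 to 3246 and 1268 to 1551 CPM with anti-PD-1. Of the 8, 7 and 7 markers, 1 macrophage gene rose and 1 fell, no fibroblast gene passed, and 1 endothelial gene, Egfl7, fell (-1.90).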

How the data were processed

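Gene-level read counts and FPKM of 6 left ventricle libraries were used. Reads were counted per gene with featureCounts on mm10, per the submitters' processing notes; the sources used here give no aligner, annotation release or strand setting. The authors deposited whole-number counts and FPKM values with gene lengths, and FPKM equalled count over length and a constant per library. Counts were filtered with filterByExpr, scaled by TMM and fitted with edgeR 4.0.16 (quasi-likelihood, robust) in R 4.3.3, anti-PD-1 against anti-IgG with 3 libraries each and no covariate. P-values were adjusted over all 14807 tested genes. Alternatives covered scaling, filters, DESeq2 1.42.0, limma 3.58.1 (voom, and trend on log2(FPKM + 1) and log2(FPKM + 0.1)), a gene length spline of 5 df, a replicate block and each library left out. The transcript length trend was chosen after seeing the data; 88.4% of tested genes had such lengths. Scripts were tested on simulated data.

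The members and lists were chosen with earlier results of these data known. Named genes were the members, 19 fixed partners and targets, the 4 smallest p in each list, and the 5 nearest to Ppara, Ppargc1a and Esrra; some of these are not reported here. Genes of one list passing the threshold were named beyond this after their values were seen.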

Additional observations from a re-analysis of the deposited data

How the results depend on the processing

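Ppara and Gpam kept direction and call in all 19 alternatives, at 2.10 to 3.52 and 2.64 to 3.50. Over all tested genes there were 3118 calls in the main fit, 1526 with the gene length correction and 809 with the transcript length correction. Leaving out 1 library gave 532 to 3646 over all genes, 1 to 3 for the regulators, 1 to 5 for PPAR targets, 4 to 10 for ERR and PGC-1 targets, 1 to 2 for biogenesis factors, 1 to 9 for coactivators and corepressors, 2 to 11 for upstream factors, 1 to 7 for other nuclear receptors and 0 to 3 for clock genes. DESeq2 called 5 regulators and 8 PPAR targets, and dropping the count filter 5 and 11. FPKM with a pseudocount of 1 or 0.1 gave 2 PPAR targets, 5 or 4 upstream factors and 0 clock genes. Upper quartile scaling gave 1 clock gene, and put Ppard at -0.07 and Esrra at -0.18. The gene length correction gave 5 ERR and PGC-1 targets, 2 coactivators and corepressors, 3 upstream factors and 0 clock genes. The transcript length correction gave 1 regulator, 3 upstream factors, 0 clock genes and 1 in each of the other 5 lists. Deviations of same-numbered libraries correlated at 0.124, -0.143 and 0.214, and control library 1 correlated best with anti-PD-1 library 2, so the numbers were not taken to pair samples. With them as a replicate block there were 3367 calls over all genes, 4 regulators with Ppargc1a added, 11 upstream factors and 6 other nuclear receptors. For these results the cause was not tested.

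Nrf1 turned to -0.25 and -0.036 in the gene and transcript length corrections, Klf15 to 0.17 and 0.034, and Polg to -0.25 in the latter. Leaving out 1 library moved Klf15 between -0.50 and 0.22. It was above 0 when control library 1 (0.073) or control library 2 (0.010), anti-PD-1 library 1 (0.066) or anti-PD-1 library 3 was left out. Depth limited Ppara in the control, at 38 to 103 reads.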
